A study of Homo sapiens with 30 samples.

Results

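Genes of the amino acid transporter families were followed through 30 RNA-seq libraries of H1299 cells, a human lung carcinoma line that makes no p53 of its own. The members were the 58 of 39359 rows in the count table whose identifiers map to protein-coding genes with symbols that start with SLC1A, SLC3A, SLC6A, SLC7A, SLC36A, SLC38A or SLC43A, so that within these families names and no measured value picked the rows. They comprise 7 SLC1A, 2 SLC3A, 17 SLC6A, 14 SLC7A, 4 SLC36A, 11 SLC38A and 3 SLC43A genes. *SLC6A11* and *SLC6A18* were not analysed here. *SLC7A6OS* came in by its name and is no carrier. It lies on the strand opposite *SLC7A6*, and *SLC7A6* overlaps 64.5% of its exon length. A minimum of reads was passed by 40 members, and the other 18 had between 2 and 56 reads each over all 30 libraries.

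Amino acids cross membranes on carriers that either couple to sodium or proton gradients or swap one amino acid for another. SLC1 and SLC38 carriers and most SLC6 carriers load cells by way of sodium. *SLC36A1* encodes a carrier that moves small neutral amino acids with protons and is known from lysosomes. The SLC7 light chains exchange substrates once they are bound to a heavy chain of the SLC3 family. Cystine import for glutathione, leucine import and glutamine supply all depend on members of these families, and several of them feed the lysosomal sensing of amino acids by mTORC1. p53 is a transcription factor that responds to stress and has known targets in amino acid and glutamine metabolism.

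Cells were transfected with a GFP vector alone (pGFP) or with a vector that made wild type p53, the RW mutant p53 (tryptophan in place of arginine at codon 248), or p53 from a template that carried an *O*6-methylguanine at codon 248 (p53 O6-meG). In the last group the cells with the lesion vector also received 10 µM O6-bzG, which inactivates the repair protein AGT. With AGT inactive, transcription past the lesion miscodes more often (p53 TM, for transcriptional mutagenesis). Per the paper, only part of the p53 transcripts in p53 TM were miscoded, and this part was smaller at 24 h than at 6 h. The p53 TM groups therefore hold a mixture of wild type and mutant p53 transcripts. No other group received O6-bzG, so the compound and the miscoded p53 cannot be told apart in any comparison with p53 TM. Cells positive for the GFP reporter were sorted at 6 h and 24 h after transfection with 3 libraries per group, all from 1 cell line. At 6 h the second replicates of p53 O6-meG and p53 TM carried labels that contradict each other, and both libraries were kept out of every comparison, which left 28 libraries in 10 groups and 2 libraries in each of these 2 groups. *CDKN1A*, a known p53 target, read 261 and 269 CPM (counts scaled to a common library size) in the p53 O6-meG libraries with clear labels at 6 h and 57.9 and 65.9 CPM in those of p53 TM. It read 50.1 CPM in the library whose genotype field names p53 O6-meG alone and 250 CPM in that whose field adds O6-bzG, so that these values go against the genotype field and lie nearer to the groups named by the first part of the titles.

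Total counts were between 32302699 and 71950532 per library. VIM was at 1930 CPM or more in every library, and the leukocyte marker PTPRC and the alveolar marker SFTPC did not exceed 2 and 5 reads in any library. Other listed markers were not all as low. The alveolar marker NKX2-1 reached 54 reads, the fibroblast markers COL1A1 and DCN 90 and 26, and the endothelial markers VWF and PECAM1 46 and 40. Of the epithelial markers, KRT8 and KRT18 were at 111 and 272 CPM or more in every library. KRT19, EPCAM and CDH1 did not exceed 0.165, 0.381 and 0.176 CPM. The paper names the libraries as biological triplicates, and the labels give no separate cultures behind them. P values measure the spread between these libraries. In bulk RNA a change in how many cells respond and a change of RNA per cell cannot be told apart.

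Neutral amino acid carriers were the most abundant members in pGFP cells. Levels between genes were compared as CPM per kb of exon. At 6 h *SLC38A2* and *SLC38A1*, sodium-coupled carriers that load glutamine, alanine and serine, stood at 83.6 ± 2.84 and 71.8 ± 1.22 CPM per kb (SD, n = 3). *SLC7A5*, the light chain LAT1 that brings in leucine, reached 62.7 ± 5.72 CPM per kb, and its heavy chain *SLC3A2* (4F2hc) reached 27.3 ± 1.23 CPM per kb. The glutamine exchanger *SLC1A5* (ASCT2) lay between them at 32 ± 1.95 CPM per kb. A lower tier held *SLC7A6*, a light chain that swaps cationic for neutral amino acids, at 12.0 ± 0.934, the arginine and lysine carrier *SLC7A1* at 11.8 ± 0.922, *SLC38A10* at 8.02 ± 0.658, *SLC7A6OS* at 7.78 ± 0.119 and the taurine carrier *SLC6A6* at 7.15 ± 0.122 CPM per kb. The order of *SLC7A6* and *SLC7A1* was within their SDs, as was that of *SLC38A10* and *SLC7A6OS*. At 24 h *SLC38A2* read 86.9 ± 11.6, *SLC7A5* 43.0 ± 4.82 and *SLC38A1* 36.5 ± 5.09 CPM per kb, and the last pair no longer differed by more than its SDs. The monoamine carriers of the SLC6 family, *SLC6A4* for serotonin and *SLC6A3* for dopamine, were near the bottom, at 0.00583 and 0.00456 CPM per kb at 6 h.

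**Figure D1:**
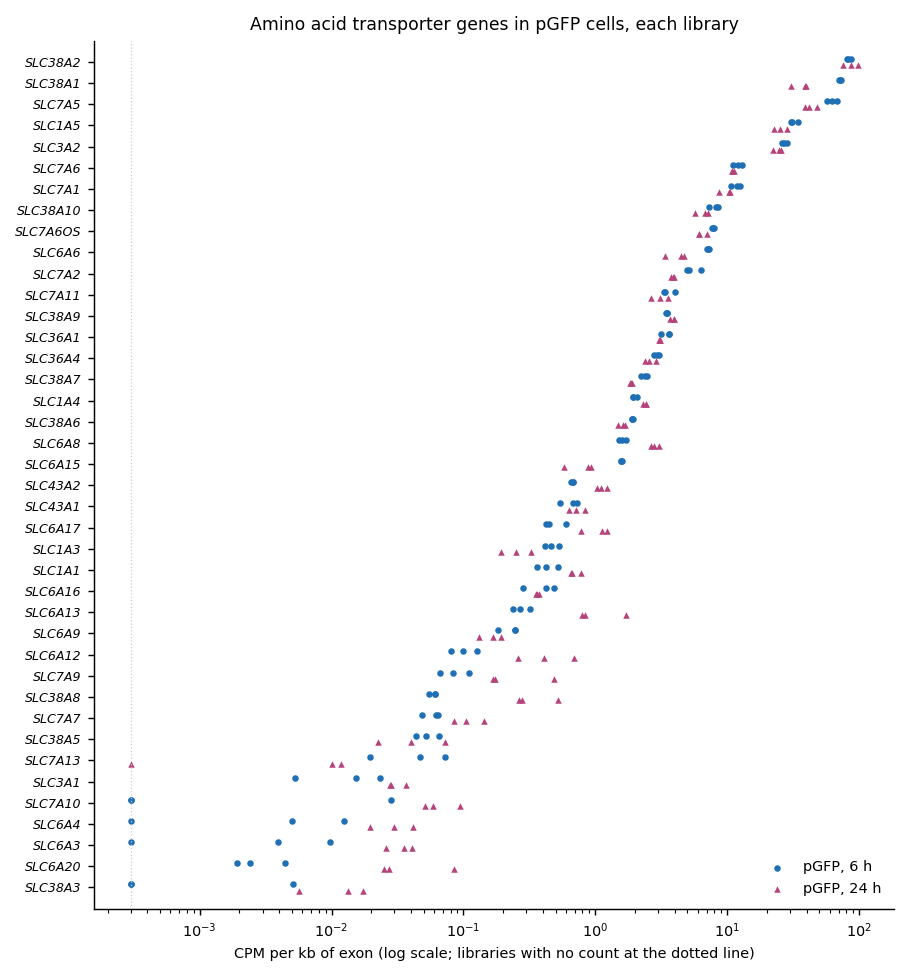
Level of each of the 40 tested members in every pGFP library, as CPM per kb of exon on a log axis, with circles for 6 h and triangles for 24 h. Genes are ordered by their mean at 6 h, from *SLC38A2* at 83.6 down to *SLC38A3* at 0.0017 CPM per kb, and libraries without a read sit on the dotted line.

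Wild type p53 raised 5 of the 40 tested members at 6 h and 14 at 24 h, and lowered 0 and 3. The rises at 24 h covered carriers of glutamate (*SLC1A3*), creatine (*SLC6A8*), glycine (*SLC6A9*), taurine (*SLC6A6*) and large neutral amino acids (*SLC7A5*, *SLC43A2*), both SLC36 carriers that were tested, and *SLC7A6*. The falls at 24 h were the glutamate carrier *SLC1A1*, the neutral amino acid exchanger *SLC1A4* and the carrier of large neutral amino acids *SLC43A1*, and each was smaller than 2-fold. A change was called at an adjusted P under 0.05 by edgeR's quasi-likelihood test over all 21335 genes tested. By the same rule 8.68% of all genes rose and 1.59% fell at 6 h, against 12.5% and 0% of the members. At 24 h 20.5% of all genes rose and 14.5% fell, against 35% and 7.5% of the members. The rises include *SLC38A3* and *SLC6A4* at both times and *SLC6A3* and *SLC7A13* at 24 h, all with few reads. As given below, some of these entered the test through groups where they were high. The shares of the members count such calls and describe them only. The median log2 fold change of the members was 0.02 at 6 h and 0.08 at 24 h, beside 0.02 and 0.01 over all genes.

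**Figure D2:**
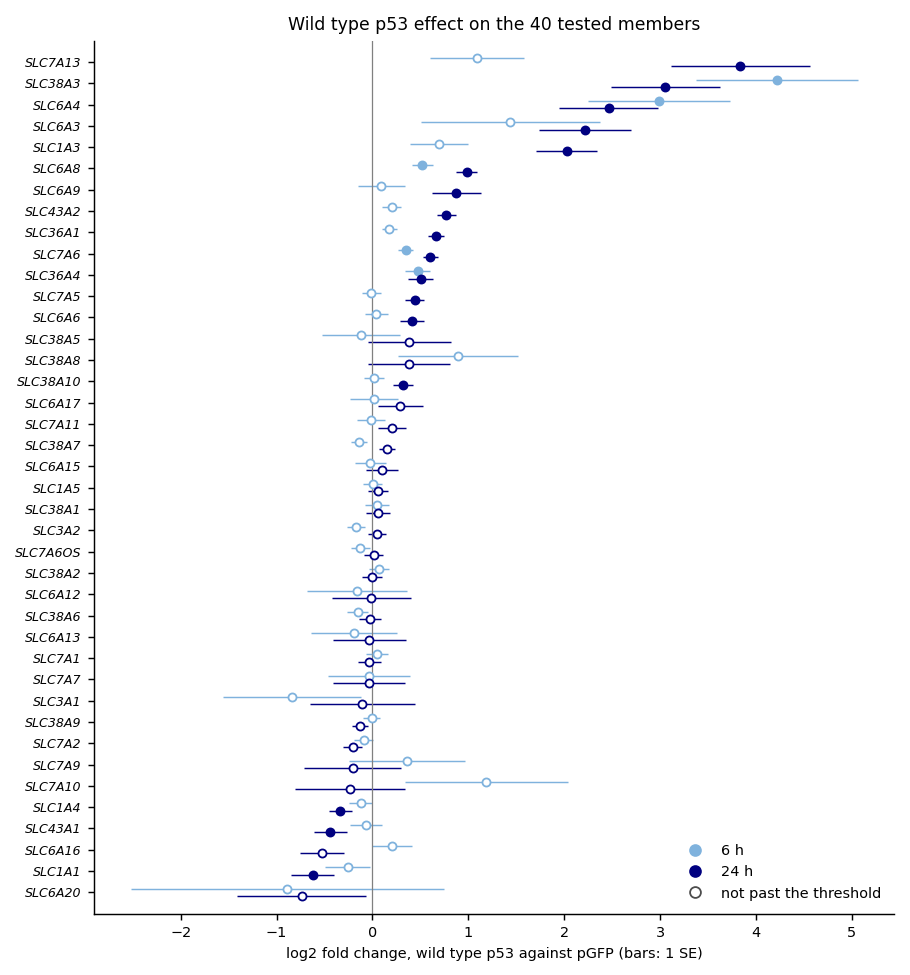
Log2 fold change of wild type p53 against pGFP for the 40 tested members at 6 h (light) and 24 h (dark), with bars of 1 SE, filled where the adjusted P passed 0.05. At 24 h 14 filled points lie to the right of 0 and 3 to the left, and the 4 members with few reads at the top have the widest bars.

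Of the members with many reads, *SLC1A3* (chr5:36596588-36688334, GRCh38, plus strand), the glutamate and aspartate carrier GLAST, changed most. At 24 h it read 6.85, 4.1 and 5.3 CPM in the pGFP libraries and 34.1, 15.6 and 16.2 CPM with wild type p53. Every wild type library lay above every pGFP library, and replicate 1 of wild type stood well above its partners. The log2 fold change was 2.02 ± 0.32 (SE), a 4.07-fold rise (adjusted P = 1.6e-05). At 6 h the libraries also did not overlap, with 8.76 to 11.3 CPM in pGFP and 14.9 to 17.3 CPM with wild type p53, and the log2 difference of 0.70 ± 0.30 missed the threshold (adjusted P = 0.19), though it passed in the fit on the 2 groups alone (adjusted P = 0.00015). The other acidic amino acid carrier with enough reads, *SLC1A1*, moved the other way and fell by 0.62 ± 0.23 on the log2 scale at 24 h.

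*SLC6A8* (chrX:153687926-153696588, plus strand) brings creatine into cells and was called at both times. It read 9.7, 9.15 and 8.61 CPM in pGFP and 12.6, 13 and 13.8 CPM with wild type p53 at 6 h. At 24 h the pGFP libraries stood at 15.1, 16 and 17.2 CPM and the wild type libraries at 32.9, 35.4 and 27.4 CPM, with no overlap at either time. The log2 fold change was 0.52 ± 0.11 at 6 h (adjusted P = 0.0017) and 0.98 ± 0.11 at 24 h (adjusted P = 6.3e-08), the latter a 1.98-fold rise. Of the carriers of GABA, betaine and taurine in the same family, *SLC6A6* rose by 0.41 ± 0.13 on the log2 scale at 24 h, while *SLC6A12* and *SLC6A13* had differences of -0.01 ± 0.41 and -0.03 ± 0.39 and were not called. *SLC6A9*, the glycine carrier GLYT1, rose by 0.87 ± 0.26. *SLC6A9* had few reads, at 0.69 to 1.01 CPM in pGFP and 1.25 to 1.99 CPM with wild type p53.

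Of the SLC36 carriers, *SLC36A1* is proton-coupled and is tied to amino acid efflux from lysosomes. *SLC36A1* (chr5:151437046-151492379, plus strand) read 21.7, 21.2 and 21.5 CPM in pGFP at 24 h and 36.1, 35.5 and 30.4 CPM with wild type p53, a log2 fold change of 0.66 ± 0.08 (adjusted P = 3.3e-07). At 6 h it stood at 21.9 to 25.4 CPM and 26.0 to 28 CPM, and the log2 difference of 0.18 ± 0.08 was not called. *SLC36A4* (chr11:93144174-93197991, minus strand) rose to a similar degree at both times, by 0.47 ± 0.13 at 6 h and 0.50 ± 0.13 at 24 h on the log2 scale. *SLC36A2* and *SLC36A3* had 17 and 2 reads over all libraries and were not tested. Of the SLC43 carriers, *SLC43A2* (chr17:1569268-1628886, minus strand) read 10.9, 11.8 and 13.1 CPM in pGFP at 24 h and 21.2, 20.6 and 19.3 CPM with wild type p53, a log2 fold change of 0.77 ± 0.10 (adjusted P = 5.6e-07). Its relative *SLC43A1*, which carries overlapping substrates, fell by 0.44 ± 0.17 on the log2 scale (adjusted P = 0.048).

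Among the light chains, *SLC7A6* (chr16:68264516-68301823, plus strand) stood at 83.6, 97.7 and 92.0 CPM in pGFP and 113, 117 and 118 CPM with wild type p53 at 6 h, and rose by 0.35 ± 0.08 on the log2 scale (adjusted P = 0.0029). At 24 h it stood at 82.4, 82.1 and 85.9 CPM against 138, 123 and 120 CPM, a rise of 0.60 ± 0.08 (adjusted P = 8.1e-07), without overlap of the groups at either time. On the opposite strand *SLC7A6OS* overlaps 44.4% of its exon length, and *SLC7A6OS* itself read 0.01 ± 0.10 on the log2 scale at 24 h. Another gene on that strand overlaps *SLC7A6* too. *SLC7A5* was 205 ± 23.0 CPM in pGFP and 278 CPM on average with wild type p53 at 24 h, a rise of 0.44 ± 0.10 (adjusted P = 0.0011). Its heavy chain *SLC3A2* gave a log2 difference of 0.05 ± 0.10 and the cystine carrier *SLC7A11* (xCT) one of 0.21 ± 0.14 at 24 h, and neither was called. The cationic carriers *SLC7A1* and *SLC7A2* and the abundant carriers *SLC1A5*, *SLC38A1* and *SLC38A2* had log2 differences between -0.20 and 0.06 at 24 h, and *SLC38A9*, an arginine sensor of the lysosome, had one of -0.13. Of these, *SLC7A2* was called at an adjusted P of 0.019 when the replicate number was kept as a block. *SLC38A10* rose by 0.32 ± 0.11.

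**Figure D3:**
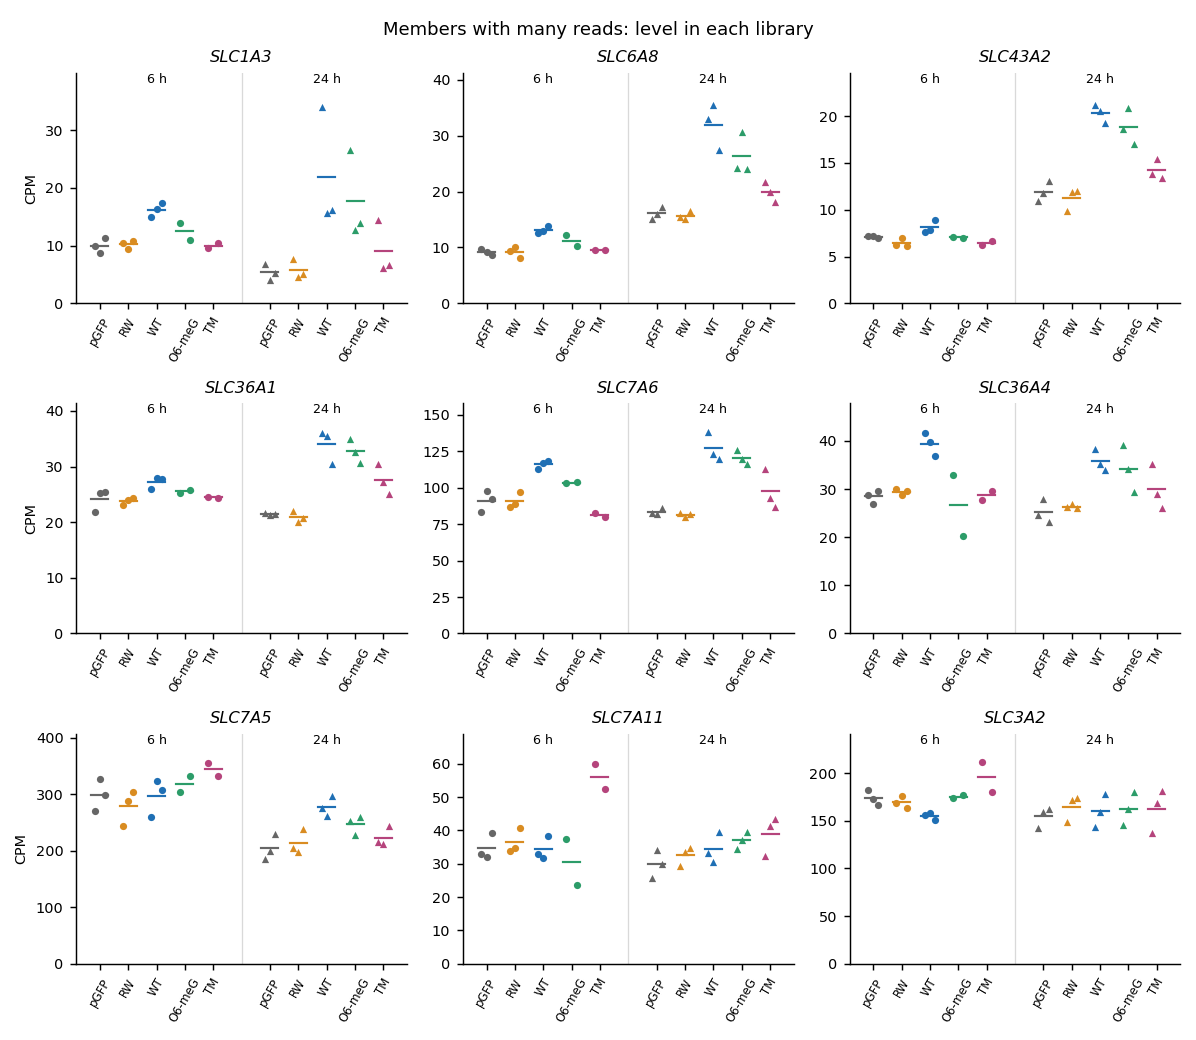
CPM of 9 members with many reads in each library of the 10 groups, with circles for 6 h, triangles for 24 h and a line at each group mean. Among the triangles of the panels for *SLC1A3*, *SLC6A8*, *SLC43A2*, *SLC36A1* and *SLC7A6* the wild type libraries lie above all pGFP and RW libraries, and among the circles of the *SLC7A11* panel the p53 TM libraries lie highest.

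The 4 largest fold changes belonged to members with few reads. *SLC38A3*, a glutamine carrier (SNAT3), had 1, 0 and 0 reads in pGFP and 6, 6 and 15 reads with wild type p53 at 6 h. At 24 h it had 2, 1 and 3 reads against 15, 24 and 15. The ratio of the summed reads, scaled to library size, was 26.7 (95% exact counting interval 4.4 to 1090) at 6 h and 8.77 (3.78 to 24.9) at 24 h, with adjusted P values of 0.0012 and 0.00017. Counting intervals cover counting error only. *SLC6A4* had 6 reads in pGFP and 52 with wild type p53 at 6 h, and 26 against 147 at 24 h, ratios of 8.56 (3.68 to 24.4) and 5.51 (3.61 to 8.71), called at adjusted P values of 0.0073 and 0.00045. *SLC6A3* was called at 24 h, with 6, 8 and 5 reads in pGFP and 42, 26 and 23 with wild type p53 (ratio 4.67, 2.82 to 8.11). *SLC7A13*, a light chain relative, was called at 24 h, with 1, 1 and 0 reads against 10, 10 and 14 (ratio 16.6, 4.25 to 142). Its pGFP level was itself lower at 24 h than at 6 h, when the libraries held 8, 2 and 6 reads. *SLC38A3* had at most 3 reads in any pGFP or p53 TM library and at most 5 in any RW library. It and *SLC6A3* met the minimum of reads through groups where they were high, wild type p53 among them. Their adjusted P values and calls, also against p53 TM, depend on that entry and only describe these counts. The same may hold for *SLC6A4* and *SLC7A13*. Among the untested members, *SLC6A19* had 1 read in the 3 pGFP libraries and 19 with wild type p53 at 24 h (ratio 18.5, 2.94 to 769).

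**Figure D4:**
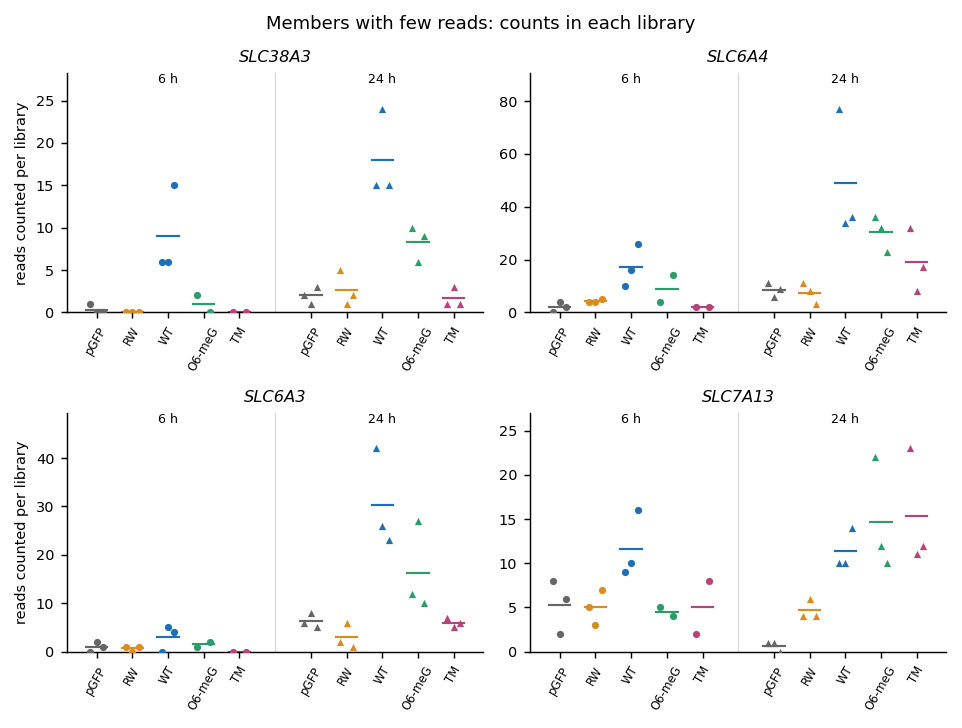
Reads counted per library for *SLC38A3*, *SLC6A4*, *SLC6A3* and *SLC7A13*, with circles for 6 h, triangles for 24 h and a line at each group mean. The wild type libraries hold the most *SLC38A3* reads at both times, and *SLC7A13* at 24 h is near 0 in pGFP alone.

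Of the 17 calls at 24 h, 11 held when any 1 of the 6 libraries was left out. The other 6 were *SLC1A1*, *SLC1A4*, *SLC43A1*, *SLC38A10*, *SLC6A6* and *SLC6A9*, whose adjusted P rose to as much as 0.13, 0.14, 0.2, 0.17, 0.11 and 0.064 without wild type replicate 1, wild type replicate 2, pGFP replicate 1, wild type replicate 2, pGFP replicate 1 and wild type replicate 3, in that order. At 6 h 3 of 5 calls held. *SLC6A4* reached an adjusted P of 0.05 without pGFP replicate 1, and *SLC36A4* reached 0.082 without wild type replicate 1 and 0.076 without pGFP replicate 2.

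Short stretches of promoter sequence are shown for some of the members that hold a match to a p53 half-site or to TGATGNAA, the element shared by ATF4 and C/EBP factors, since both factors have known targets among carriers of amino acids. RefSeq windows from 250 bases before to 50 bases after each annotated start (GRCh38.p14) were found for 43 of the 58 members, 65 windows in all, and both strands were searched with matches allowed to overlap. The half-site occurred in 7.69% of the members' windows and in 6.63% of all 35116 windows, and TGATGNAA in 9.23% and 3.62%. Of the 14 members that rose at 24 h, 10 had a window and 1 of them, *SLC1A3*, held a half-site. *SLC38A1*, which had a log2 difference of 0.06 at 24 h, held one too. The stretches shown were chosen after values were seen, and half-sites in *SLC38A5*, *SLC7A7* and *SLC7A8* and a TGATGNAA match in *SLC38A1* are left out. Each line gives 30 bases in the direction of the gene, with the match in capitals.
SLC1A3, half-site, chr5:36606616-36606645, plus strand: cacactgtcaGGGCTAGCCTgcctgcttac
SLC38A1, half-site, chr12:46267979-46268008, minus strand: cactaaaccgGGGCATGTTTgccgtccttc
SLC1A3, TGATGNAA, chr5:36596357-36596386, plus strand: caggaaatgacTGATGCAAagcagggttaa
SLC3A2, TGATGNAA, chr11:62881719-62881748, plus strand: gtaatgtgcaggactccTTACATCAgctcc
SLC1A4, TGATGNAA, chr2:64989381-64989410, plus strand: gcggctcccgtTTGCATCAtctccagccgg
SLC1A5, TGATGNAA, chr19:46784893-46784922, minus strand: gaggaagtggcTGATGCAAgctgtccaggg
SLC7A1, TGATGNAA, chr13:29595663-29595692, minus strand: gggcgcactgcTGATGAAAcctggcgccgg
In *SLC3A2* and *SLC1A4* the element reads on the opposite strand. *SLC1A5* and *SLC7A1* were not called by the main test in any comparison of p53 vectors, and *SLC1A4* fell with wild type p53 at 24 h by 0.33 ± 0.12 on the log2 scale. A match is a description of these letters and not a bound site.

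The wild type effect itself differed between the 2 times for 2 members. The rise of *SLC43A2* was larger at 24 h than at 6 h by 0.57 ± 0.14 on the log2 scale (adjusted P = 0.013), and that of *SLC36A1* by 0.49 ± 0.11 (adjusted P = 0.0096). Over all genes 3.73% had a larger and 2.77% a smaller effect at 24 h by the same test, against 5% and 0% of the members. With the replicate number as a block 12 members had a larger effect at 24 h, *SLC1A3*, *SLC6A8*, *SLC7A5* and *SLC7A6* among them. DESeq2's Wald test called 5. Without wild type 6 h replicate 1 *SLC43A2* was no longer called and 1 member remained, and without wild type 24 h replicate 3 the count was 4.

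Without a p53 vector, levels also differed between the times. In pGFP cells 12 members were higher and 11 lower at 24 h than at 6 h, 30% and 27.5% of those tested, beside 19% and 22.3% of all genes. *SLC6A3*, *SLC6A4* and *SLC7A13* are among these calls, and the limit on their entry given above holds for these shares too. The largest rises were in members with few reads. *SLC6A20*, a proline carrier, had 4 reads at 6 h and 50 at 24 h (ratio 15.2, 5.58 to 58.0), *SLC6A3* had 3 and 19 (ratio 7.7, 2.27 to 40.6), and *SLC7A10*, a carrier of small neutral amino acids, had 5 and 26 (ratio 6.32, 2.39 to 21.1). *SLC6A8* and *SLC43A2*, which had many reads, rose by 0.82 ± 0.11 and 0.75 ± 0.10 on the log2 scale. The largest falls were those of *SLC7A13*, with 16 reads at 6 h and 2 at 24 h (ratio 0.152, 0.017 to 0.647), of *SLC6A15*, a carrier of branched-chain amino acids and proline, by 0.98 ± 0.17, and of *SLC38A1* by 0.97 ± 0.13 (adjusted P = 1.4e-06). *SLC38A1* read 706, 729 and 723 CPM at 6 h and 307, 390 and 400 CPM at 24 h, so the groups lay far apart. *SLC6A6*, *SLC7A5* and *SLC7A2* fell by 0.76, 0.54 and 0.50. Mitochondrial reads made up 0.17% to 0.35% of the pGFP libraries at 6 h and 0.61% to 0.72% at 24 h, and their part in these changes was not tested. Of the 23 calls 15 held without any 1 library. *SLC7A13* was lost without pGFP 24 h replicate 3 or pGFP 6 h replicate 1, and the other losses were *SLC1A1*, *SLC1A3*, *SLC1A5*, *SLC38A10*, *SLC6A4*, *SLC7A6OS* and *SLC7A9*.

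**Figure D5:**
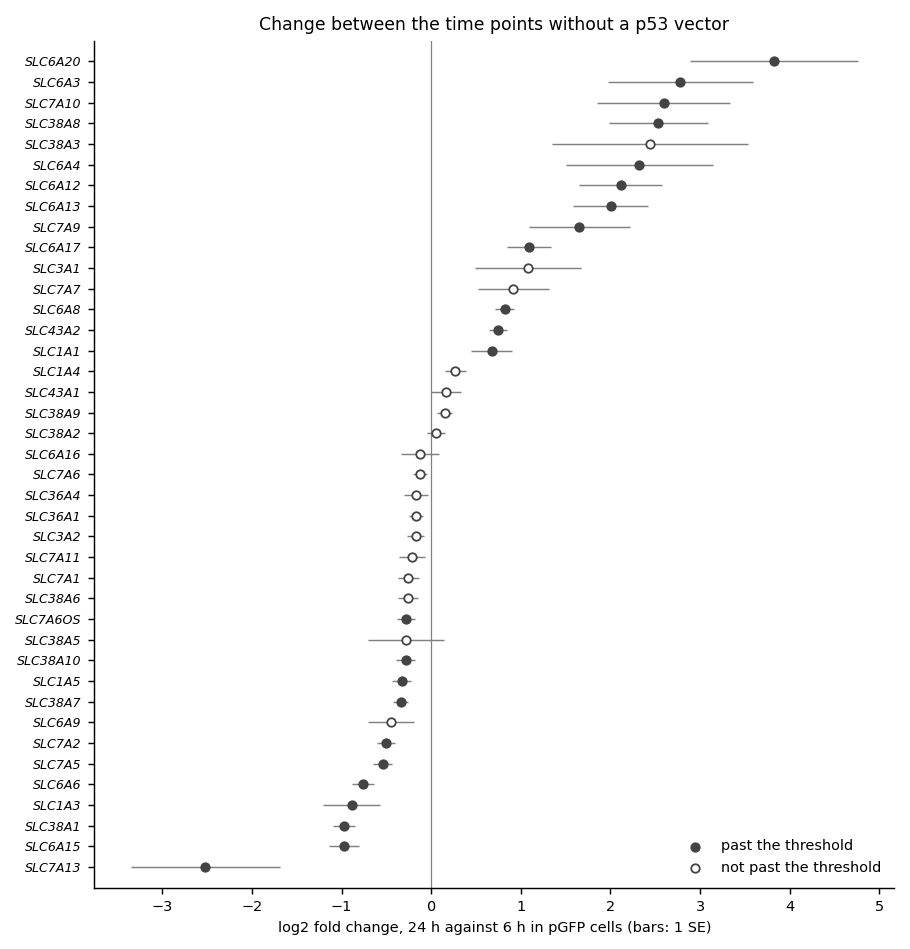
Log2 fold change between 24 h and 6 h in pGFP cells for the 40 tested members, with bars of 1 SE, filled where the adjusted P passed 0.05. Filled points lie on both sides, 12 to the right and 11 to the left of 0, with *SLC6A20* at 3.82 and *SLC7A13* at -2.52 as the extremes.

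The RW mutant, which cannot bind p53 sites in the usual way, was compared with pGFP at the same times. Of the 40 members 0 were called at 6 h or 24 h by edgeR or by DESeq2, while 0.00469% of all genes were called at each time, and 0 and 2 members had an unadjusted P under 0.05 in edgeR. The median log2 difference over the members was -0.02 and 0.01, beside 0.00 and 0.01 over all genes. *SLC1A3* read 7.72, 4.63 and 5.02 CPM at 24 h, within the pGFP range apart from replicate 1. *SLC6A8* read 15.4, 15.1 and 16.5 CPM and *SLC36A1* read 22, 20 and 20.7 CPM. Their log2 differences were 0.10 ± 0.33, -0.04 ± 0.11 and -0.04 ± 0.08. *SLC38A3* had no read in any of the 3 RW libraries at 6 h.

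p53 O6-meG, where AGT could repair the template, gave 18 called members at 24 h, 15 higher and 3 lower than pGFP. These are 37.5% and 7.5% of those tested, beside 18.1% and 11.3% of all genes. *SLC38A3*, *SLC6A3*, *SLC6A4* and *SLC7A13* are among the rises, and the limit on their entry given above holds for this share too. *SLC1A3* read 26.5, 12.7 and 13.9 CPM, *SLC6A8* 24.2, 30.6 and 24.1 CPM, and *SLC36A1* 35.0, 32.6 and 30.7 CPM, each library above all pGFP libraries. Their log2 fold changes were 1.71 ± 0.32, 0.71 ± 0.11 and 0.61 ± 0.08. *SLC43A2* rose by 0.66 ± 0.10 and *SLC7A6* by 0.53 ± 0.08. *SLC38A7*, a glutamine carrier known from lysosomes, was among the rises (0.27 ± 0.08) and *SLC6A16*, an orphan member, among the falls (0.68 ± 0.23), while wild type p53 gave 0.15 and -0.53 for them, both uncalled, though *SLC6A16* was called there with the replicate block. Of the 18 calls 7 held without any 1 library, and *SLC38A7* and *SLC6A16* were among the 11 that did not. Wild type p53 and p53 O6-meG were set against the same pGFP libraries, so their lists are not independent. Without pGFP 24 h replicate 1 the count fell from 18 to 10, and without p53 O6-meG 24 h replicate 1 to 12. The fit on the 2 groups alone called 11, and DESeq2's Wald test called 13 higher and 5 lower.

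At 6 h 0 members were called with p53 O6-meG (n = 2) by edgeR or DESeq2, with 6 at an unadjusted P under 0.05 in edgeR, while 4.32% of all genes rose and 0.53% fell. Without pGFP 6 h replicate 3, *SLC7A10* was called. *SLC6A4* had 4 and 14 reads in the 2 libraries. *SLC6A8* read 12.2 and 10.2 CPM and *SLC36A4* 33.0 and 20.2 CPM, the latter on both sides of the pGFP libraries. Directly against wild type p53, 0 members were called at either time by edgeR or DESeq2, where 0% of all genes at 6 h and 0.00937% at 24 h were. In edgeR 3 members had an unadjusted P under 0.05 at 6 h and 1 at 24 h. The log2 differences of *SLC1A3*, *SLC6A8* and *SLC36A1* from wild type p53 at 24 h were -0.32 ± 0.30, -0.28 ± 0.11 and -0.06 ± 0.08. Without p53 O6-meG 6 h replicate 1, *SLC36A4* was called.

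p53 TM, made from the lesion template while AGT was inactive, was compared with pGFP and then with wild type p53, and wild type p53 and p53 TM were set against the same pGFP libraries. Against pGFP 0 members were called at 6 h (n = 2), with 2 at an unadjusted P under 0.05 in edgeR and 1, *SLC7A11*, called by DESeq2, while 0.192% of all genes rose and 0.00937% fell. At 24 h 2 members rose and 0 fell, beside 9% and 1.68% of all genes. These were *SLC36A1*, at 30.5, 27.2 and 25.0 CPM and a log2 fold change of 0.36 ± 0.08 (adjusted P = 0.0034), and *SLC7A13*, with 23, 11 and 12 reads (adjusted P = 0.00012). *SLC7A13* thus had more reads than in pGFP (1, 1 and 0), and the 4 to 6 reads per RW library lay between. A block on the replicate number raised the count from 2 to 10, with *SLC1A3*, *SLC6A8*, *SLC43A2*, *SLC7A6*, *SLC7A11*, *SLC38A7* and *SLC38A10* among the rises and *SLC1A1* as the fall. Without p53 TM 24 h replicate 3 the count was 5, and the fit on the 2 groups alone called 0.

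Directly against wild type p53 at 6 h, 5 members were lower with p53 TM and 2 were higher, 12.5% and 5% of those tested, beside 8.14% and 2.77% of all genes. *SLC38A3* and *SLC6A4* are among the lower members, and the limit on their entry given above holds for this share too. *SLC7A6* read 83.0 and 79.6 CPM with p53 TM, below each wild type library, and was lower by a log2 difference of -0.51 ± 0.09 (adjusted P = 2e-04). *SLC6A8* read 9.51 and 9.53 CPM (-0.46 ± 0.12) and *SLC36A4* 27.7 and 29.7 CPM (-0.46 ± 0.14), each below all wild type libraries. *SLC38A3* had no read in either p53 TM library against 27 in the wild type libraries and was called lower (adjusted P = 0.0021). The ratio of p53 TM to wild type p53 was 0, with an exact counting interval of 0 to 0.226. Taking 3 reads for the whole p53 TM group would put *SLC38A3* 5.84-fold higher in the wild type libraries. That value rests on the assumed 3 reads and is not a lower bound. *SLC6A4* had 2 and 2 reads. With DESeq2's size factors in edgeR the split was 4 lower and 3 higher.

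The 2 members that were higher with p53 TM can form 1 carrier. *SLC3A2* is also the heavy chain of *SLC7A5*, which had a log2 difference of 0.21 in this comparison and was not called. *SLC7A11* (chr4:138164097-138242349, minus strand) encodes xCT, the light chain that trades glutamate for cystine, and *SLC3A2* (chr11:62856004-62888880, plus strand) encodes the heavy chain that holds it at the membrane. *SLC7A11* read 59.8 and 52.5 CPM with p53 TM at 6 h, 32.8, 31.8 and 38.2 CPM with wild type p53 and 32.8, 32.1 and 39.1 CPM in pGFP. *SLC7A11-AS1* on the opposite strand overlaps 9.0% of its exon length, and without a stated strand for the counts their reads cannot be told apart there. Both p53 TM libraries stood above every library of the other groups in the comparison, and the p53 O6-meG libraries read 37.3 and 23.5 CPM. The log2 difference from wild type p53 was 0.71 ± 0.16 (adjusted P = 0.0029), and that from pGFP, 0.69 on the log2 scale, was not called. *SLC3A2* read 212 and 180 CPM against 156, 158 and 151 CPM with wild type p53, a difference of 0.34 ± 0.11 (adjusted P = 0.039). The pGFP libraries, at 182, 173 and 167 CPM, overlapped those of p53 TM, and the difference from pGFP was 0.17. The call of *SLC3A2* against wild type p53 was lost under 6 of 13 alternatives, with an adjusted P of up to 0.51. At 24 h *SLC7A11* stood at 32.3, 41.2 and 43.5 CPM with p53 TM and 33.2, 30.6 and 39.5 CPM with wild type p53 (log2 difference 0.18, not called). These calls rest on few libraries. Without p53 TM 6 h replicate 1 the 7 calls became 2, *SLC38A3* and *SLC7A6*, and the adjusted P of *SLC7A11* was 0.075. Without wild type 6 h replicate 2, or without p53 TM 6 h replicate 3, 4 were left. With the contradictory libraries placed by their genotype field, which their *CDKN1A* values go against, no member was called. Placed by the first part of the title, 10 were.

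At 24 h 10 members were lower with p53 TM than with wild type p53 and 0 were higher, 25% and 0% of those tested, beside 11.9% and 9.29% of all genes, and the median log2 difference of the members was -0.14 beside -0.01 over all genes. *SLC38A3*, *SLC6A3* and *SLC6A4* are among the 10, and the limit on their entry given above holds for this share too. *SLC6A8* read 21.7, 20 and 18.1 CPM and *SLC43A2* 13.8, 15.4 and 13.4 CPM with p53 TM, all below the wild type libraries and above the pGFP libraries. They were lower by log2 differences of -0.68 ± 0.11 and -0.52 ± 0.10. *SLC7A6*, *SLC7A5*, *SLC6A6* and *SLC36A1* were lower by -0.38 ± 0.08, -0.32 ± 0.10, -0.36 ± 0.13 and -0.30 ± 0.08. *SLC1A3* read 14.4, 6.08 and 6.61 CPM, a difference of -1.29 ± 0.31 (adjusted P = 0.0038), and in each of the 3 groups replicate 1 was highest. Without wild type 24 h replicate 1 the difference of *SLC1A3* was -0.81 with an adjusted P of 0.061, and the count fell from 10 to 6. *SLC38A3* had 1, 3 and 1 reads against 15, 24 and 15 (ratio 0.0862, 0.0269 to 0.214), *SLC6A3* 18 against 91 in all (ratio 0.184, 0.104 to 0.308) and *SLC6A4* 57 against 147 (ratio 0.361, 0.261 to 0.493). *SLC7A13* had 46 reads with p53 TM and 34 with wild type p53 (ratio 1.26, 0.791 to 2.02) and was not called. The block on the replicate number gave 15 lower and 1 higher. *SLC7A5* and *SLC6A6* rose above an adjusted P of 0.05 without any of 4 and 5 of the 6 libraries, up to 0.11 and 0.15, *SLC6A4* without 3, up to 0.23, and *SLC36A1* without 2, up to 0.064.

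Other genes of amino acid handling were counted in 4 fixed lists. Over all genes 20.5% rose and 14.5% fell with wild type p53 at 24 h, and the counts of the lists in that comparison are to be read beside these shares. Of 18 tested carriers outside the 7 families, 4 rose and 5 fell with wild type p53 at 24 h, with a median log2 fold change of -0.14. The falls included the lysosomal carriers *SLC17A5* for sialic acid and acidic amino acids (-0.83 ± 0.10) and *SLC66A1* for cationic amino acids (-0.51 ± 0.09), and the rises the mitochondrial glutamate carrier *SLC25A22* (0.58 ± 0.11). Of 36 genes of amino acid sensing by mTORC1, 9 rose and 5 fell, led by the leucine sensors *SESN1* (2.54 ± 0.13) and *SESN2* (1.60 ± 0.10), both known p53 targets, while *SESN3* was lower (-1.11 ± 0.18). Of 20 tested enzymes 4 rose and 1 fell, and *GLS2*, a glutaminase and known p53 target, rose by 4.95 ± 0.31 on the log2 scale.

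Of 22 genes of the ATF4 response to amino acid shortage, 10 rose and 1 fell with wild type p53 at 24 h, with a median log2 fold change of 0.31. *SESN2*, *DDIT4* and *NUPR1* are on that list and also respond to p53, as background. With p53 TM (n = 2) against wild type p53 at 6 h, 9 of the 22 were higher and 3 lower, where 2.77% of all genes were higher and 8.14% lower. The 3 lower were *SESN2*, *DDIT4* and *NUPR1*. The higher ones included *ATF4* itself (0.51 ± 0.12), *DDIT3* (1.25 ± 0.20), *CHAC1* (0.74 ± 0.17) and the asparagine synthetase *ASNS* (0.95 ± 0.21). Against pGFP 4 were higher with p53 TM at 6 h, *DDIT3* (1.22 ± 0.20), *CHAC1*, *SESN2* and *DDIT4*, and 0 were lower, where 0.192% of all genes were higher. At 24 h 1 of the 22 was higher and 6 were lower with p53 TM than with wild type p53. Their median log2 difference there was -0.08, and 9.29% of all genes were higher and 11.9% lower. Against pGFP 7 were higher at 24 h and 0 lower, beside 9% and 1.68% of all genes. The list counts were not repeated with single libraries left out or with the contradictory libraries placed in a group. No gene of the 4 lists was called with the RW mutant at either time.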

How the data were processed

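Total RNA of sorted GFP-positive H1299 cells was sequenced after depletion of ribosomal RNA. Per the labels and the study's methods, the authors aligned single reads to hg38 with STAR 2.5.3a and counted reads per gene with featureCounts (Subread 1.5.2), and the deposited table holds raw counts. Whether counting used strand is not given in the sources used here. A second deposited table of normalized values was not used.

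Row identifiers were matched to GENCODE v44 (38904 of 39359 rows). Counts were scaled by TMM and tested in edgeR 4.0.16 (R 4.3.3) by the quasi-likelihood F test, with 1 model over the 10 groups, after filterByExpr, with the Benjamini-Hochberg adjustment over all 21335 genes. The fit was checked on simulated counts. Levels are CPM after TMM over all 30 libraries. Ratios of members with few reads carry exact binomial intervals (95%).

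The families to describe, and thereby the members, the lists and the comparisons were chosen with earlier results of these data known, and within the families members were taken by symbol. The text names all members called with wild type p53, the 10 highest per kb, a fixed set of 20 carriers, all called for p53 TM against wild type p53, for the RW mutant or for the change of the wild type effect with time, and the 3 largest rises and falls with time. Of the fixed set, *SLC7A3* had 7 reads over all libraries and was not tested.

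At 24 h all 30 pairs of same-numbered libraries of different groups deviated together (r of 0.333 to 0.809). At 6 h 18 of 23 pairs did. The main model held group means alone, so its SEs and adjusted P values leave this pairing out. The replicate block, run as an alternative, takes the pairing in. With it the counts at 24 h were higher for wild type p53, p53 O6-meG and p53 TM. Replicates differed by more than sampling noise in all 26 pairs (chi-square per degree of freedom 5.61 to 43.6). Alternatives were DESeq2 1.42.0, its size factors, other filters, the compared groups alone, the replicate block, both placements of the contradictory libraries, and each library left out.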

Additional observations from a re-analysis of the deposited data

Results flagged for a closer look

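The effect of wild type p53 against pGFP differed between 6 h and 24 h, by the test of the difference itself, for *SLC36A1* (0.49 on the log2 scale) and *SLC43A2* (0.573), both larger at 24 h.

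The 2 libraries at 6 h with contradictory labels entered no comparison, and some members read above the highest pGFP 6 h library in them. In the library whose genotype field names p53 O6-meG with O6-bzG and the first part of whose title names p53 O6-meG alone, with *CDKN1A* at 250 CPM, *SLC38A3* read 0.0933 CPM against a highest pGFP value of 0.0203, *SLC6A4* 0.49 against 0.0874, *SLC36A4* 36.3 against 29.7, *SLC7A6* 103 against 97.7 and *SLC6A8* 12.3 against 9.7. In the library whose genotype field names p53 O6-meG alone and whose title begins with both, with *CDKN1A* at 50.1 CPM, *SLC6A8* read 9.9 CPM. These are single libraries, and the differences were not tested.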

How the results depend on the processing

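Each result for a single named member was set against each alternative, so that 1 result is counted many times. Of these pairs of result and alternative, 884 kept the direction and side of the threshold, 78 lost the call and 17 gained one. Another 52 changed sign, of which 0 were called in either fit. The cause was not tested for any of the changes below. Wild type p53 against pGFP at 6 h gave 3 called members with at least 10 counts required in every library, which drops *SLC38A3* and *SLC6A4*. p53 O6-meG against pGFP gave 1 at 6 h in the fit on the compared groups alone (*SLC6A13*) and 1 with the title's first part deciding the contradictory libraries (*SLC6A4*), and 11 at 24 h on the compared groups alone. p53 TM against pGFP at 6 h gave 1 (*SLC7A11*) by DESeq2's Wald test, with every gene that had a count, and on the compared groups alone. At 24 h it gave 1 by the Wald test and with the stricter filter and 0 on the compared groups alone. p53 TM against wild type p53 gave 0 at 6 h by the genotype field and 5 at 24 h on the compared groups alone. pGFP over time gave 15 with the stricter filter. The change of the wild type effect with time gave 5 by the Wald test, 4 with the stricter filter and 1 (*SLC1A3*) with every gene that had a count.

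Leaving out 1 library at a time gave 4 to 6 members for wild type p53 at 6 h and 12 to 15 at 24 h, 0 for the RW mutant at both times, 0 to 1 and 10 to 15 for p53 O6-meG, 0 and 2 to 5 for p53 TM, 2 to 6 and 6 to 10 for p53 TM against wild type p53, 0 to 1 and 0 for p53 O6-meG against wild type p53, 18 to 20 for pGFP over time and 1 to 4 for the change of the wild type effect.

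The changes of sign were in log2 differences near 0. For wild type p53 at 6 h *SLC1A5* gave -0.043 with DESeq2's size factors and by the Wald test, -0.012 with every gene that had a count, -0.002 with the stricter filter, -0.026 on the compared groups alone and -0.001 with either placement of the contradictory libraries. With the size factors and by the Wald test *SLC6A6* gave -0.002, *SLC38A10* -0.027 and *SLC38A1* a value that rounds to 0, and *SLC38A10* gave -0.01 on the compared groups alone. At 24 h *SLC1A5*, *SLC38A1* and *SLC3A2* gave -0.023, -0.026 and -0.033 with every gene that had a count, and *SLC38A2* gave 0.008 with the stricter filter and 0.002 with the replicate block. *SLC3A2* for p53 TM against wild type p53 at 24 h gave -0.009 with the size factors and by the Wald test and -0.003 with the stricter filter. Without 1 library, values at 6 h ran from -0.159 to 0.02 for *SLC7A2*, -0.079 to 0.054 for *SLC7A5*, -0.045 to 0.05 for *SLC1A5*, -0.013 to 0.098 for *SLC7A1*, -0.187 to 0.015 for *SLC43A1*, -0.105 to 0.08 for *SLC7A11*, -0.049 to 0.062 for *SLC38A10*, -0.047 to 0.02 for *SLC38A9* and -0.073 to 0.185 for *SLC6A9*. At 24 h they ran from -0.06 to 0.148 for *SLC1A5*, -0.052 to 0.127 for *SLC38A1*, -0.097 to 0.095 for *SLC38A2*, -0.165 to 0.027 for *SLC7A1* and -0.031 to 0.089 for *SLC3A2*, and from -0.067 to 0.127 for *SLC3A2* with p53 TM against wild type p53.

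Same-numbered libraries of different groups deviated together less closely at 6 h than at 24 h, with a median r of 0.228 beside 0.61. With the replicate block, counts at 6 h were 8 for wild type p53, 3 for p53 O6-meG, 3 for p53 TM, 12 for p53 TM against wild type p53 and 4 for p53 O6-meG against wild type p53. At 24 h the block gave 20 for wild type p53, 23 for p53 O6-meG, 10 for p53 TM and 16 for p53 TM against wild type p53, and 12 for the change of the wild type effect. Low counts limit *SLC38A3*, *SLC6A3*, *SLC6A4* and *SLC7A13*, whose ratios carry wide intervals.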

Other observations

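In the 2 libraries with contradictory labels, *SLC7A11* read 48.3 CPM where the genotype field names p53 O6-meG and 40.9 CPM where it names p53 O6-meG with O6-bzG, *SLC3A2* 172 and 173 CPM, *SLC1A3* 9.68 and 13.5 CPM, and *SLC43A2* 5.81 and 8.98 CPM. The p53 target *CDKN1A* read 50.1 and 250 CPM in the same order, beside 261 and 269 CPM in the p53 O6-meG libraries and 57.9 and 65.9 CPM in the p53 TM libraries with clear labels at 6 h.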
